A study of Mus musculus with 4 samples.

Results

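Adenosines called as N6-methyladenosine (m6A) sites in the 3' untranslated regions (3' UTRs) of macrophage messenger RNAs were described. Members were the rows of the deposited site tables whose annotated position was the 3' UTR. They numbered 15141 of 45668 called sites in mouse 1 (33.2%, 95% interval 32.7% to 33.6%) and 16114 of 47747 in mouse 2 (33.7%, 33.3% to 34.2%), in 4769 and 4892 genes. At the same nucleotide and strand in both tables, and annotated as 3' UTR in both, were 12906 sites, which are called shared below. Another 96 sites called in both mice were 3' UTR sites in the mouse 1 table only and 106 in the mouse 2 table only.

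The cells were bone marrow-derived macrophages (BMDM), macrophages grown in culture from marrow, of 2 wild-type mice. All 4 libraries came from cells exposed for 3 h to LPS, a bacterial cell wall component that activates macrophages, so resting cells were not compared. Each mouse gave 1 library after immunoprecipitation with an m6A antibody (IP) and 1 input library without that step. The sources used here do not give strain, sex or age of the animals, nor what the term NTC in the table names stands for. All 8 macrophage marker genes checked (Adgre1, Csf1r, Cd68, Itgam, Lyz2, Mertk, Fcgr1 and Spi1) had called sites in both mice. Of these 8, 5 had a shared 3' UTR site, beside 56.6% of all genes with a site called in both mice. Of the 45 macrophage identity genes used as a list below, 41 had a site called in both mice. Marco, Lgals3 and Ctsd had no called site in either mouse, and Cd163 had 1 in mouse 2 only. In m6A-eCLIP, crosslinked antibody leaves read starts next to the modified base, and each table row is 1 base with a score and a fold, which compares the read starts of the IP with those of the input. Score and fold are the authors' values. Read numbers were not given, so a single site has no error of its own, and both mice's folds are printed instead. A fold is not the fraction of RNA molecules that carry the mark. Shares carry exact 95% intervals (Clopper-Pearson). These hold counting error alone, and sites of 1 transcript are not independent.

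The m6A mark is placed on nascent RNA by the Mettl3 and Mettl14 methyltransferase, mainly in a short sequence context known as DRACH, where D is A, G or T, R is A or G, and H is A, C or T. In most messenger RNAs the mark lies in long internal exons, near the stop codon and in the 3' UTR. The 3' UTR is also where microRNAs and RNA-binding proteins act on the stability and translation of an mRNA, among them the readers of the YTH family, which bind m6A and can recruit deadenylases.

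Sequence was read for those shared 3' UTR sites that lie in a RefSeq promoter window (GRCm38.p6, which shares its coordinates with mm10), the only sequence used here. These were 24 sites in 13 genes, which lie close to the annotated start of another gene, so they are a small and selected set. The called base was A in 24 of 24. It was A too at all 121 shared coding sequence sites and all 3366 shared 5' UTR sites in such windows. Whether sites at other bases could be called was not given in the sources used here. A DRACH motif with its A at the called base stood at 21 of 24 sites (87.5%, 67.6% to 97.3%), and allowing its A within 5 bases added none. Over every A of the promoter windows on both strands the share in DRACH was 7.76%. The most frequent form was GGACT, found at 6 sites. It was followed by AGACT at 4 sites, and the same number of sites held TGACT. The following 21-base windows show the motif at sites of Pcif1 and Ncf1 (all 3 shared 3' UTR sites of each gene are in this set). Sites of other genes with higher and lower folds are shown too. Each runs 5′ to 3′ on the transcript strand, from RefSeq GRCm38.p6, with the 5 bases around the called A in capitals.

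Pcif1 chr2:164891159-164891179, plus strand: gactgctaGGACTcagcctca

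Pcif1 chr2:164891196-164891216, plus strand: tggcagcaGGACTtgagctgc

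Ncf1 chr5:134221615-134221635, minus strand: aaaggacaGGACTgggttaat

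Ncf1 chr5:134221641-134221661, minus strand: tttgaaatGGACTgagactct

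Ncf1 chr5:134221671-134221691, minus strand: caggttagAGACTcctcccat

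Dnajc30 chr5:135064977-135064997, plus strand: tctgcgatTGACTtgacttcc

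Mrpl43 chr19:45005671-45005691, minus strand: ggcgctttGGACCgtgagagg

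Cox10 chr11:63964056-63964076, minus strand: agacacacGGACAgcactgcc

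Nup160 chr2:90735544-90735564, plus strand: agggcttaAGACTacgctaca

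Zbtb8a chr4:129354059-129354079, minus strand: tctcctacTGACTtagaagca

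Pcif1 encodes the methyltransferase of the cap-adjacent adenosine, and its first window had folds of 80.2 in mouse 1 and 61.6 in mouse 2. The second had folds of 72.2 and 25.7. Ncf1 encodes a cytosolic subunit of the phagocyte NADPH oxidase. Its sites, in the order printed, had folds of 70.2 and 31.0, of 37.4 and 52.9, and of 13.5 and 27.2, so the order of its sites by fold differed between the mice. In Dnajc30, a mitochondrial chaperone gene, the printed site had folds of 80.2 and 31.8. The window holds a further TGACT, 5 bases downstream, whose A was called as a site of its own with folds of 21.1 and 25.04. Lower folds among the windows printed above were those of Nup160, a nuclear pore subunit (12.03 and 19.3), and Zbtb8a, a zinc finger gene (10.03 and 9.63). Of the 21 sites with DRACH, 20 were enriched in both mice by the limit used below, a fold of at least 8. The remaining site, in 4930523C07Rik, had folds of 6.52 in mouse 1 and 22.1 in mouse 2 and is not printed.

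The 3 sites without the motif differed from the others in position as well. All 3 lay past the 3' end of the RefSeq gene whose 3' UTR the tables name, against 0 of the 21 sites with DRACH. All 3 also lay in the promoter window of a gene on the same strand, as did 1 site with DRACH, in Foxm1. They are shown for this contrast.

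Aars chr8:111056329-111056349, plus strand: gcagcccaGCAGGcggaagta

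Cog8 chr8:107048616-107048636, minus strand: cgctagcgGAAGGaagggccg

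Cog8 chr8:107048613-107048633, minus strand: tagcggaaGGAAGggccgcgg

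The Aars site, 770 bases past its gene and in the window of Exosc6, had folds of 15.0 and 9.63. The 2 sites of Cog8, which encodes a Golgi tethering subunit, lay 83 and 86 bases past the gene in the window of Pdf and had folds of 4.35 and 4.49, and of 2.01 and 2.89. In the same kind of window, DRACH stood at 27.3% of 121 shared coding sequence sites and at 2.26% of 3366 shared 5' UTR sites. Those sites lie near gene starts by the choice of window, so these shares do not describe coding sequence or 5' UTRs as a whole.

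Most listed 3' UTR sites had a clear excess of read starts in the IP. Only called sites are listed and the calling rule was not given. How far the calling itself selected for this excess is therefore unknown. A fold of at least 8, a log2 fold of 3, was reached by 13286 sites of mouse 1 (87.7%, 87.2% to 88.3%), beside 81.7% of all called sites of that mouse. In mouse 2 it was reached by 13810 sites (85.7%, 85.2% to 86.2%), beside 79.1% of all called sites. The median fold of 3' UTR sites was 17.4 in mouse 1 (quartiles 10.7 and 32.1) and 17.3 in mouse 2 (10.6 and 32.3). The lowest fold was 0.615 in mouse 1 and 0.616 in mouse 2, and a fold of at least 100 was held by 440 sites (2.91%) and 536 sites (3.33%). Among enriched 3' UTR sites, 67.0% of the folds of mouse 1 and 66.4% of those of mouse 2 were whole multiples of 1 value per table (1.0028 and 0.9629, tolerance 1e-06), so the same fold recurs at unrelated sites. Over all enriched sites these shares were 68.9% and 67.8%. How far a fold depends on the abundance of its transcript was not tested, which limits any ranking of genes by fold.

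Coding sequence sites, the next most similar class, were close to these values. Their enriched share was 87.7% in mouse 1 and 84.7% in mouse 2, so the 3' UTR was 0.029 percentage points higher in mouse 1 and 0.97 points higher in mouse 2. The same difference was 2.12 and 2.83 points at a log2 fold of 4 and turned to -0.64 and -0.044 points among sites with a score of at least 20. Its size and direction thus changed with the limits used. Median folds were 17.0 and 16.4 in coding sequence, and 2.63% and 2.79% of its sites reached a fold of 100. With 2 animals an exact sign-flip test cannot go below p = 0.5, so no test was run.

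Genes that carried enriched sites in both their 3' UTR and their coding sequence allow the same comparison inside 1 transcript. There were 1756 such genes. The median fold was higher in the 3' UTR in 48.9% of them in mouse 1 and 49.4% in mouse 2, and the median over genes of the log2 difference, 3' UTR minus coding sequence, was -0.01 in both mice, with quartiles of -0.66 and 0.64 in mouse 1 and -0.64 and 0.68 in mouse 2. Among the shared enriched sites of the 3' UTR and the coding sequence, the strongest lay in the 3' UTR in 46.0% and 47.0% of these genes. Sites at other positions were not considered. In the 224 genes with exactly 1 enriched site in each position, the 3' UTR site was the higher in 50.0% and 50.9%. Single genes thus differed in either direction.

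The same nucleotides were called in both mice for most 3' UTR sites. Of those of mouse 1, 85.9% were called in mouse 2, and of those of mouse 2, 80.7% were called in mouse 1. In coding sequence these shares were 83.6% and 80.1%, and over all called sites 83.4% and 79.8%, so the 3' UTR values lay near the rest. Recurrence followed the score closely: with the sites of mouse 1 cut by score into 5 bins of equal size, in the lowest bin 54.7% of the 3' UTR sites were called in mouse 2, in the next bins 80.7%, 95.1% and 99.0%, and in the highest 99.9%. For mouse 2 the shares ran 43.8%, 71.7%, 91.0%, 98.3% and 99.0%. The median score was 40.2 for mouse 1 sites called in mouse 2 and 15.4 for those that were not, with median folds of 20.1 and 10.03. In mouse 2 the median scores were 43.0 and 16.8.

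**Figure D1:**
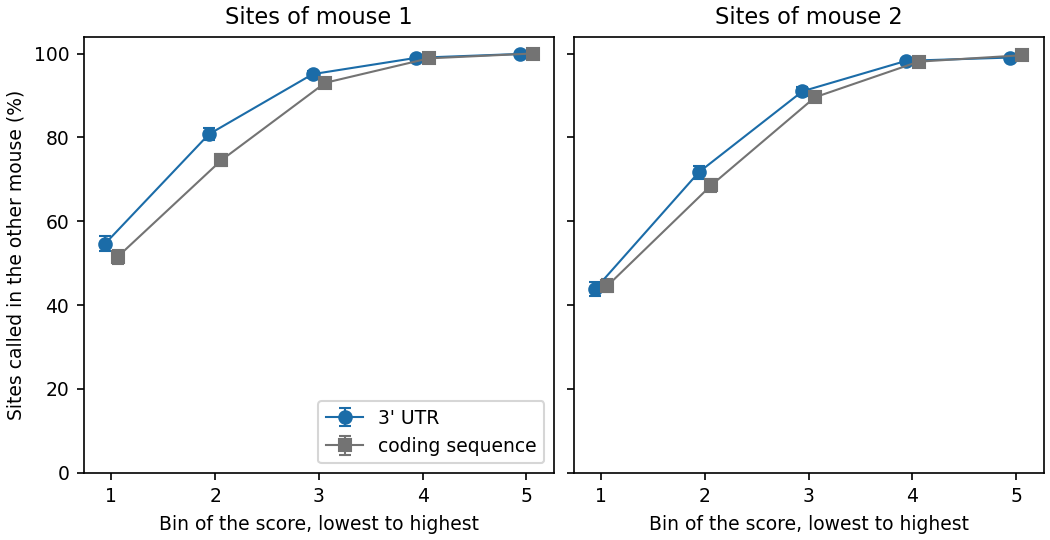
Share of called sites (percent) also called at the same nucleotide in the other mouse, by bin of the authors' score (5 bins of equal size) from lowest to highest, for 3' UTR sites (blue circles) and coding sequence sites (grey squares), with mouse 1 on the left and mouse 2 on the right. Bars are exact 95% intervals that cover counting error only. The 3' UTR share climbs from 54.7% to 99.9% in mouse 1 and from 43.8% to 99.0% in mouse 2.

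Of the 12906 shared 3' UTR sites, 10832 were enriched in both mice (83.9%, 83.3% to 84.6%). This share was nearly the same for shared coding sequence sites (83.6%) and was 76.9% for all sites called in both. A further 804 shared 3' UTR sites reached the limit in mouse 1 alone and 810 in mouse 2 alone, while 460 reached it in neither. Across the shared 3' UTR sites the log2 folds of the mice correlated with r = 0.69 (Pearson) and a rank coefficient of 0.67 (Spearman), given as a description over 12906 sites that share genes and libraries. The folds lay within 2-fold of each other at 71.5% of the sites, with a median absolute log2 difference of 0.59. At 3.49% of the sites they were over 4-fold apart, against 2.61% of shared coding sequence sites.

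**Figure D2:**
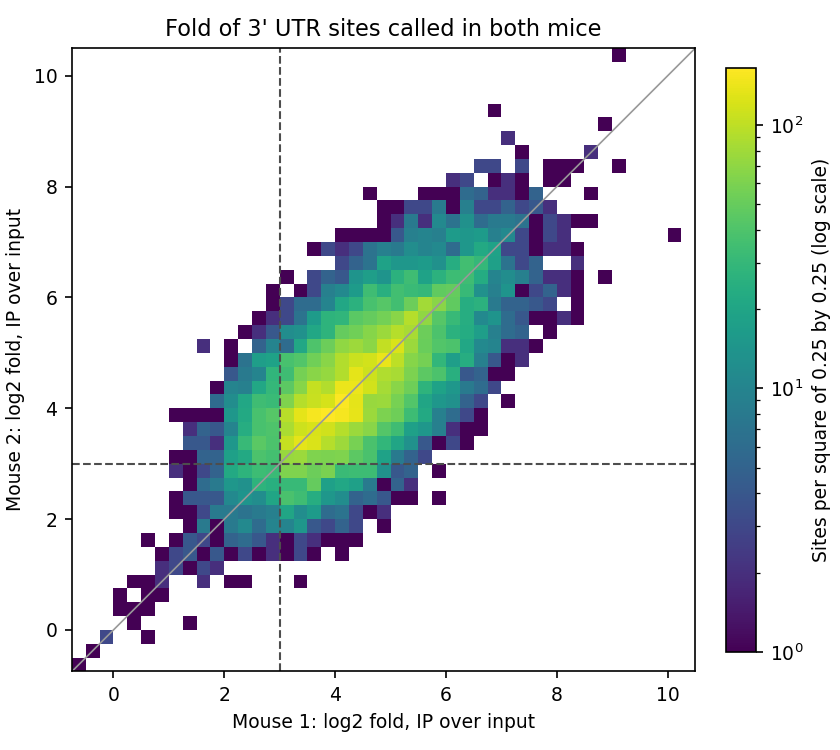
Log2 fold (IP over input) of 12906 shared 3' UTR sites in mouse 1 (x axis) and mouse 2 (y axis), as the number of sites per square of 0.25 by 0.25 on a logarithmic colour scale. Dashed lines mark the log2 fold of 3 and the grey line marks equal folds. The upper right of the dashed lines holds 10832 sites and the lower left holds 460.

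The strongest 3' UTR sites included those of Trim25, the AP-1 genes Jun and Jund, Csf1 and Csk. The 20 genes with the highest mean log2 fold of a shared 3' UTR site were taken, with no test, since the fold chose them, and 19 of them are described. The 19 are named one by one below and are not summed up, since they are not the whole of the 20.

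The first in this order was Trim25, a ubiquitin ligase that acts on the RNA sensor RIG-I, at chr11:89016745, 3549 bases from the gene's 3' end. Its 574 and 1362 are the first and second mouse's folds, and Trim25 had 4 shared enriched 3' UTR sites in all. Other interferon-induced genes in the group were Parp14, an ADP-ribosyltransferase, at chr16:35834183 (127 and 630.5), and Cmpk2, a mitochondrial nucleotide kinase, at chr12:26478497 (220.3 and 261). The mice agreed closely for Cmpk2 and lay far apart for Parp14, of which all 15 shared 3' UTR sites were enriched.

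Among transcription factors, the AP-1 subunits Jun and Jund had sites at chr4:95049993 (443 and 528) and chr8:70700136 (393 and 421). Jdp2, a repressor of the same family, had its strongest site at chr12:85639382 (146 and 462). Jun and Jdp2 each had 10 shared 3' UTR sites, all enriched, and Jund had 4. In Jund and Jun the mice differed little, while in Jdp2 mouse 2 was clearly higher.

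Among receptors and growth factors, Csf1, the growth factor that sustains macrophages, had a site at chr3:107742977 (547 and 305) and 14 enriched of 15 shared 3' UTR sites. Clec5a, a lectin receptor of myeloid cells, had one at chr6:40577874 (332 and 359). The receptor gene Notch2 had one at chr3:98148583 (259 and 360.1), and Nrp2, a co-receptor for semaphorins, one at chr1:62815853 (156 and 330.3). Clec5a was the most even of these between the animals.

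Among kinases and their partners, Csk, which restrains Src-family kinases, had a site at chr9:57627229 (383 and 419.8). Cab39, a scaffold of the kinase LKB1, had one at chr1:85849458 (421 and 223). Map3k3, of the MAP kinase cascade, had one at chr11:106154348 (176 and 310.1). Of metabolic and housekeeping genes, Acads, an acyl-CoA dehydrogenase, had 276 and 261 and Sfxn1, a mitochondrial serine transporter, 198 and 243. The sorting nexin gene Snx20 had 225 and 315, the auxiliary receptor subunit gene Kctd12 had 178 and 275, and Abcf1, which acts in translation, had 146 and 449.7. The linker histone gene H1f2 had 382 and 170.0.

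**Figure D3:**
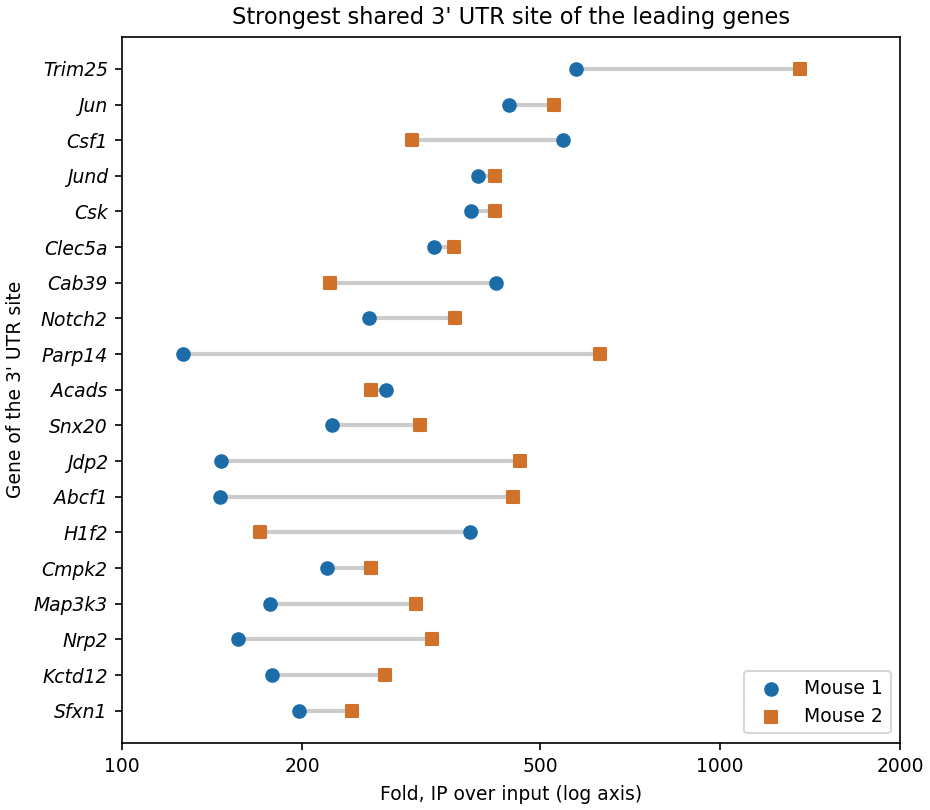
Fold (IP over input, logarithmic axis) of the strongest shared 3' UTR site of the 19 genes described among those with the highest mean log2 fold, in mouse 1 (blue circles) and mouse 2 (orange squares), joined by a grey line. Among the genes drawn, the folds are near each other for Jund (393 and 421) and far apart for Parp14 (127 and 630.5).

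How many sites a 3' UTR carried varied widely. Shared sites with a single gene name lay in 4309 genes, 56.6% of the 7608 genes with any site called in both mice. Enriched ones, 10769 in all, lay in 3851 genes with a median of 2 per gene. Exactly 1 was found in 1508 genes, exactly 2 in 853 and exactly 3 in 538. At least 5 were found in 634 genes and at least 10 in 111, and these 111 genes held 13.0% of the sites.

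Rassf4, of the Ras association domain family, had the most, with 31 shared enriched 3' UTR sites of 34 shared. Its 3' UTR sites spanned 5029 bases, and it had no called site in coding sequence. Their folds ran from 7.22 to 117 in mouse 1 and from 5.18 to 247 in mouse 2. Notch2 followed with 25 shared enriched sites. All its called 3' UTR sites, 29 in mouse 1 and 31 in mouse 2, spanned 2599 bases. Their folds ran from 2.67 to 499 and from 5.97 to 360.1, and Notch2 also had 16 and 17 called coding sequence sites.

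Syk, the kinase that transmits signals of immunoreceptors, had 20 shared enriched 3' UTR sites. All its called 3' UTR sites, 23 in mouse 1 and 25 in mouse 2, spanned 2236 bases, with median folds of 45.9 and 49.1. Further genes with many sites included the aminopeptidase gene Aopep, Icosl, the ligand of the T cell receptor ICOS, and Rab7b, a GTPase of late endosomes, with 18 each. In Icosl the sites were packed into 1145 bases with a median gap of 45 bases, and all 18 were called and enriched in both mice.

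**Figure D4:**
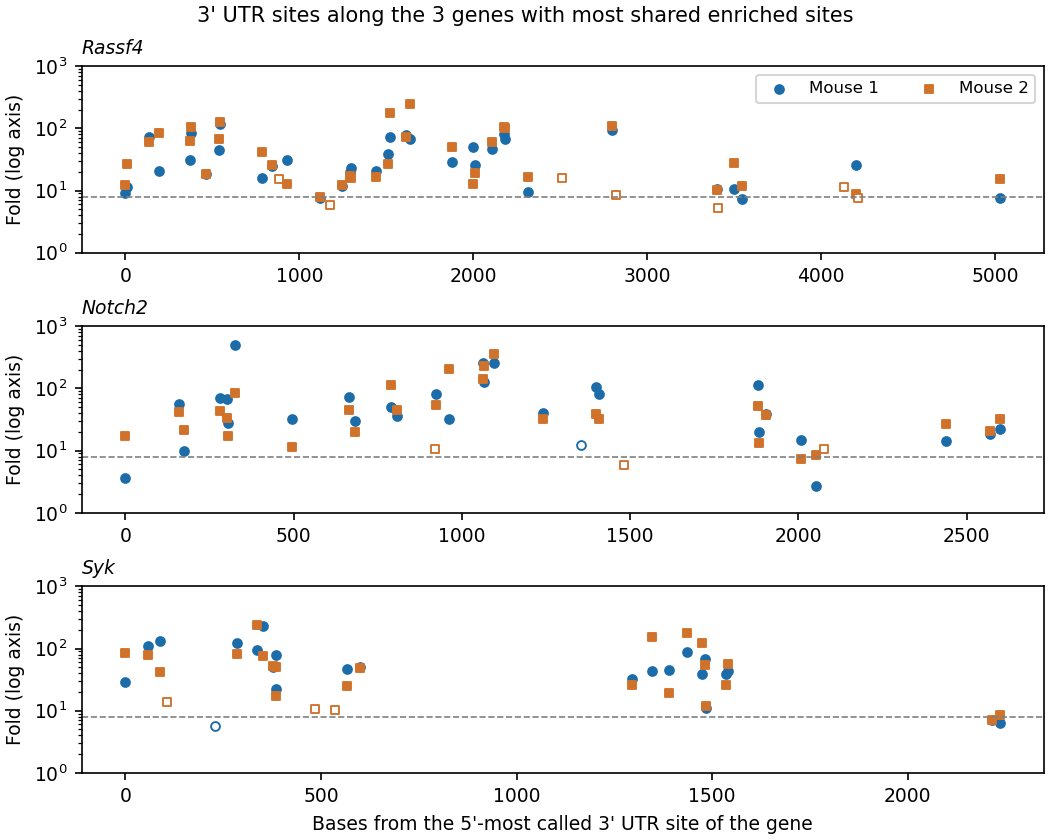
Fold (IP over input, logarithmic axis) of each called 3' UTR site against its distance in bases from the 5'-most called 3' UTR site of the gene, for Rassf4, Notch2 and Syk. Blue circles are mouse 1, orange squares mouse 2, open symbols are sites called in 1 mouse only, and the dashed line is the fold of 8. Sites of Rassf4 spread over 5029 bases and those of Syk over 2236, with weak sites beside strong ones in both mice.

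In 685 of the 3851 genes (17.8%) the 3' UTR was the sole annotated position with called sites in either mouse, and 301 of these genes rested on 1 shared enriched site. Those with most sites were Arel1, a ubiquitin ligase, and Pi4k2a, a phosphatidylinositol kinase, with 17 each. The nuclear factor gene Glyr1 had 14, and Ano6, a phospholipid scramblase, and Itga4, an integrin subunit, had 13 each. By mean log2 fold, the strongest shared site of Pi4k2a had folds of 60.5 and 195 and that of Glyr1 127 and 97.3. Over all called 3' UTR sites, the highest fold in mouse 1 was 158 in Pi4k2a and 127 in Glyr1. In mouse 2 it was 195 and 124. In Itga4 every called 3' UTR site was enriched, 13 in mouse 1 and 14 in mouse 2, with median folds of 28.8 and 52.7.

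Sites of 1 gene lay close together. Where a gene had at least 2 called 3' UTR sites, they spanned a median of 256 bases in mouse 1 and 254 in mouse 2. Of the 3' UTR sites, 48.4% in mouse 1 and 49.5% in mouse 2 had another within 50 bases, and 4.60% and 4.37% had one within 5 bases. Coding sequence sites had nearly the same spacing, with 47.4% and 49.0% within 50 bases and 4.74% and 4.84% within 5. In 5' UTRs 28.4% and 29.8% had another within 5 bases. Within 100 bases the shares in mouse 1 were 67.2% in 3' UTRs and 72.9% in 5' UTRs.

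Along the 3' UTR, the strongest of 3 shared sites was spread over all 3 places, with the lowest share at the site nearest the 3' end in both mice. These shares were not tested against each other. In mouse 1 the strongest was the first from the 5' end in 37.0% of 637 genes, the second in 35.8% and the third in 27.2% (23.7% to 30.8%). In mouse 2 these shares were 38.6%, 36.7% and 24.7% (21.4% to 28.2%) of 645 genes. Genes whose strongest folds were tied, 19 and 11, were left out. With 4 shared sites the last one was the strongest in 19.5% of 369 genes and 21.3% of 361, while with 2 sites the order was nearly even in mouse 1 (50.4% for the first) and less so in mouse 2 (53.8%).

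Distance from the stop codon was not analysed here, since the reference used holds no stop codons. Distance to the 3' end of the RefSeq gene was taken instead, a choice made after seeing the files. It was counted along the genome, introns included. The strongest shared sites of some genes named here lay far from that end, at 24130 bases in Aopep, 10716 in Gusb and 9133 in Otulin. Which transcript such a site belongs to was not tested. Of the 4309 genes, 4305 were found in RefSeq, and 99.5% of their shared 3' UTR sites lay inside the gene. The median distance to the gene's 3' end was 1126 bases (quartiles 470.5 and 2273). Within 200 bases of the end 78.4% of 992 sites were enriched in both mice (75.7% to 81.0%). The share was 82.6% at 200 to 500 bases, 82.7% at 500 to 1000, 84.9% at 1000 to 2000, 86.6% at 2000 to 4000 and 85.9% farther away. Median folds differed little over these ranges, from 18.1 in the nearest to 21.1 at 2000 to 4000 bases in mouse 1, and from 19.0 to 22.1 in mouse 2.

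Strong sites were present close to the gene end too. Abcf1 had a second site 124 bases from its end (268 and 155). Mob3c, a kinase activator gene, had one 163 bases away (195 and 196), and Pcyt2, of phosphatidylethanolamine synthesis, one 82 bases away (170 and 195). At the far end, Wdr26, a subunit of a ubiquitin ligase, had a site 4484 bases away (245 and 185) and Azi2, an adaptor of the kinase TBK1, one 7599 bases away (126 and 332).

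The share of shared enriched sites that lay in the 3' UTR was taken for each of a set of gene lists. Over all genes, 37.8% of shared enriched sites were in 3' UTRs (37.3% to 38.4%), and 50.6% of genes with a site called in both mice had an enriched 3' UTR site. The lists hold few genes and were not tested, so each is set beside these values as a description. Genes named below beyond the 3 highest of a list were chosen after their values were seen.

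Of 32 cytokine and chemokine genes with a shared site, 18 had an enriched 3' UTR site, and 45.0% of their shared enriched sites (63 of 140, 36.6% to 53.6%) lay there. After Csf1 the highest were the platelet-derived growth factor genes Pdgfa (94.8 and 244) and Pdgfb (197 and 109.5). Tnf had 4 shared 3' UTR sites, all enriched, with a strongest of 65.9 and 83.3. Il1b had 1 (94.4 and 104.6) and Il6 had 1 (31.7 and 55.2). Lif, a cytokine of the IL-6 family, had 7, led by 36.1 and 83.8. The median fold of the list's enriched 3' UTR sites was 25.1 and 30.8, beside 23.1 and 24.1 over all genes.

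Among NF-kB subunits and feedback inhibitors, 22 of 35 genes had an enriched 3' UTR site, and the 3' UTR share was 37.8% (90 of 238). Dusp1, a phosphatase that turns off MAP kinases, led with 190.3 and 246 at chr17:26506006. The deubiquitinase genes Otulin (180.5 and 193) and Tnfaip3 (221 and 110.4) came next, and Tnfaip3 had 12 such sites. Socs3, an inhibitor of cytokine receptor signalling, had 8 (strongest 93.7 and 94.5), and Nfkbia, which encodes the inhibitor IkB alpha, had 1 (34.8 and 25.6).

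In the Toll-like receptor pathway 19 of 32 genes had an enriched 3' UTR site, but 21.8% of the list's sites (72 of 331, 17.4% to 26.6%) lay in 3' UTRs and 69.8% in coding sequence. The LPS receptor gene Tlr4 led with 129 and 126, followed by Tab2, an adaptor of the kinase TAK1 (100.3 and 113), and the transcription factor gene Irf5 (104 and 106). All 6 shared 3' UTR sites of Tlr4 were enriched.

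Interferon-stimulated genes had a 3' UTR share of 20.8% (132 of 635, 17.7% to 24.2%), with 34 of 60 genes carrying an enriched 3' UTR site. Their enriched 3' UTR sites had median folds of 35.6 and 34.5. These medians were above those over all genes (23.1 and 24.1). So were those of the NF-kB list (38.1 and 32.7), the inducible transcription factors (38.3 and 35.7) and the AU-rich list (33.4 and 32.3) described here. The cytokine list (25.1 and 30.8), macrophage identity genes (27.6 and 27.6) and lysosomal genes (23.4 and 27.5) were above in both mice too. Lists with lower medians in both mice included chromatin regulators (20.6 and 22.6) and mRNA decay and 3' UTR-binding proteins (22.1 and 20.2). The narrowed ribosomal list described below was lower as well (21.5 and 23.1). Respiratory chain genes were lower in mouse 1 and higher in mouse 2 (18.9 and 31.8). The Toll-like receptor pathway lay near all genes (23.2 and 22.8). The NF-kB and AU-rich lists share members, and these differences were not tested. Oasl1, of the oligoadenylate synthetase-like family, had 4, led by 79.1 and 216, beside Trim25, Parp14 and Cmpk2 above.

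Inducible transcription factors had 26 of 35 genes with an enriched 3' UTR site and a share of 44.0% (128 of 291). After Jun and Jund came Cebpb, a factor of the acute inflammatory response (232 and 176). Atf3, a stress-induced repressor, had 15 shared 3' UTR sites, all enriched, with a strongest of 114 and 156. Ier5, an immediate-early gene, had 13, and its strongest differed between mice (234 and 55.4).

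Macrophage identity genes had 30 of 41 with an enriched 3' UTR site and a share of 44.2% (125 of 283). Clec5a led, then Spi1, a master regulator of the myeloid lineage (155 and 161), and the Fc receptor gene Fcgr2b (90.0 and 145). Sirpa, which encodes a receptor for the signal CD47, had 16 (strongest 175 and 62.8). Maf, a differentiation factor, had 13 (49.1 and 143), and Csf1r, the receptor of Csf1, had 5 (97.3 and 126).

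A further list held mRNAs taken as AU-rich or as bound by decay factors, and AU-rich elements were not searched for here. Of its 34 genes with a site called in both mice, 23 had an enriched 3' UTR site and the share was 39.3% (72 of 183). Their leaders were Dusp1, Tnfaip3 and Cd274, the gene of the checkpoint ligand PD-L1 (224 and 66.2), and the list shares members with the cytokine and NF-kB lists. Of 32 genes for mRNA decay and 3' UTR-binding proteins, 18 had one and the share was 32.5% (49 of 151), led by Arid5a, which stabilises Il6 mRNA (72.2 and 53.9). Zfp36, the tristetraprolin gene, had 2 (40.3 and 55.7).

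Genes of the m6A machinery itself had 10.7% of their shared enriched sites in 3' UTRs (13 of 121, 5.85% to 17.7%) and 74.4% in coding sequence, and 6 of 22 genes had an enriched 3' UTR site. The leaders were Pcif1, shown above, the reader gene Ythdf2 (30.1 and 50.1) and Wtap, a subunit of the writer complex (13.4 and 85.7). Chromatin regulators had 25.5% (80 of 314) in 3' UTRs with 29 of 43 genes, led by Setd5 (98.3 and 107), Chd8, a remodeller (62.2 and 89.5), and the corepressor gene Ncor1 (64.2 and 66.4).

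Lysosomal genes had 45.5% of their sites in 3' UTRs (46 of 101) and 19 of 31 genes with one, led by Gusb, the beta-glucuronidase gene (100.3 and 209.9), and the cathepsin gene Ctsl (51.8 and 69.3) after Npc1 (67.2 and 67.4), a cholesterol transporter. Respiratory chain and ATP synthase genes had 6.60% (7 of 106, 2.696% to 13.1%), in 5 of 68 genes, and 79.2% in 5' UTRs. Their leaders were Cox7a2l (91.6 and 75.7), Atp5o (53.7 and 51.0) and Uqcr10 (48.1 and 31.8), the first of which acts in supercomplex assembly.

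The list of cytosolic ribosomal proteins, matched by symbol, also took in S6 kinase genes and Rps19bp1, which are no ribosomal proteins and held most of its 3' UTR sites. Without them 15.6% of its shared enriched sites lay in 3' UTRs (5 of 32, 5.28% to 32.8%), in 3 of 29 genes, and 65.6% lay in 5' UTRs. With them the share was 48.5% (33 of 68). The 3 genes were Rpl7l1, a paralogue of Rpl7 (24.4 and 38.5), Rpl41 (21.5 and 17.5) and Rpl15 (10.03 and 23.1).

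**Figure D5:**
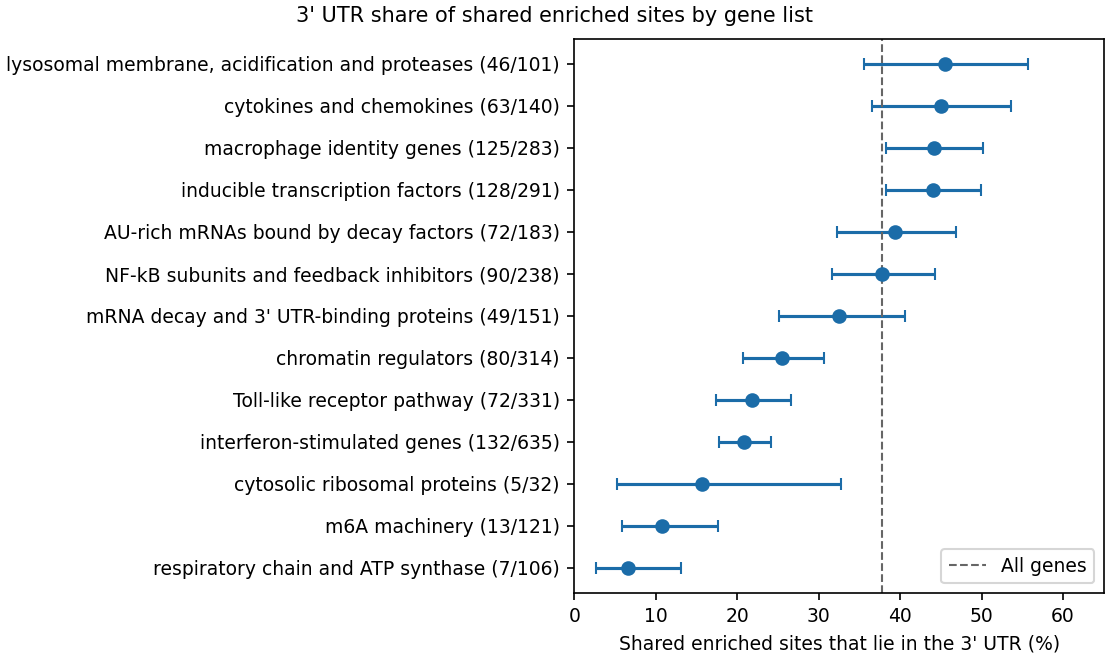
Percent of each gene list's shared enriched sites that lie in the 3' UTR, with exact 95% intervals (counting error only) and the number of 3' UTR sites over all shared enriched sites in parentheses. The ribosomal list is drawn without S6 kinase genes and Rps19bp1, and the dashed line is the share over all genes, 37.8%. Marker lists of other cell types are not drawn. The lists drawn range from 6.60% for the respiratory chain to 45.5% for lysosomal genes.

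Among shared sites, the widest differences between the mice were found in the following genes. Tlr2, a receptor for bacterial lipoproteins, had a site at chr3:83836370 with folds of 8.60 in mouse 1 and 86.7 in mouse 2. Cops4, a signalosome subunit gene, had one with 7.35 and 74.1, and BC029722, a gene without an assigned function, one with 3.18 and 35.6. In the other direction, Fgl2, of the fibrinogen-like family, had 54.2 and 5.30, Csnk1a1, a casein kinase gene, 84.2 and 9.90, and Bnip1, a gene of vesicle fusion, 27.1 and 3.47. The Tlr2 site had scores of 55.7 and 74.9, so it was well above the lowest listed score in both animals.

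High scores did not always go with high folds. Of shared sites enriched in neither mouse, the highest by score were in Trir (5.98 and 5.05), the Myc partner gene Max (4.46 and 3.67) and the small GTPase gene Rhob (7.42 and 6.31), with scores between 68.2 and 85.3. Iqgap1, a scaffold of the cytoskeleton, held the other 2, with folds of 2.74 and 2.57, and of 3.75 and 5.90. All of these genes also had enriched 3' UTR sites, 11 in Iqgap1 and 11 in Rhob.

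The 3' UTR sites called in 1 mouse alone numbered 2139 in mouse 1 and 3102 in mouse 2, and 73.0% and 66.9% of them were enriched. For coding sequence sites not called in the other mouse these shares were 74.0% and 67.1%, and for all such sites 66.2% and 59.5%. The 3 highest of the 3' UTR sites by score in mouse 1 lay in Snx20 (fold 24.4), Cmtm7 (44.8) and Clec4e (8.02), a lectin receptor gene. A site of mouse 2 lay 10, 44 and 43 bases away. In mouse 2 they lay in BC005537 (71.4), Icam1 (36.4), an adhesion molecule gene, and Acod1 (12.8). For BC005537 and Icam1 a site of mouse 1 lay 32 and 12 bases away. For Acod1, the gene of the itaconate-forming enzyme induced by LPS, the nearest was 14483 bases away.

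Acod1 stood apart among genes with 3' UTR sites in 1 table only. Its mouse 2 rows held 23 called 3' UTR sites, 6 of them enriched, with folds from 1.21 to 62.2, beside 16 sites in coding sequence and 2 in the 5' UTR. Among the mouse 1 rows used here none named Acod1 or lay in that span. Such genes numbered 326 in mouse 1 and 449 in mouse 2, and 8 and 13 of them had at least 3 such sites. Apart from Acod1 none had more than 4, and Acod1 rows made up 23 of the 3102 sites called in mouse 2 alone. Whether Acod1 differed between the animals or between the tables was not tested.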

How the data were processed

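Poly(A)-selected RNA of LPS-treated BMDM from 2 mice was used for m6A-eCLIP, and each mouse gave an IP and an input library. Per the submitters' processing notes, cutadapt 2.7, STAR 2.6.0c and UMI-tools 0.5.1 were used, with the builds mm10 and hg38 named. The caller, how its score is defined, the annotation and the read numbers were not given in the sources used here. Each mouse has its own deposited table. Per the file headers each row has a position, a score, a fold change of read starts, a gene and a feature. The deposited scores were all above 10. The deposited fold is a linear ratio of IP over input and was used as given, or as its log2. Coordinates are the authors' mm10 positions, 1 base per site.

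Rows annotated as 3' UTR were kept per mouse, and sites at the same chromosome, end and strand in both tables were joined. Enriched means a log2 fold of at least 3. No comparison between groups was tested: all cells were treated and the 2 mice are replicates, and p-values over sites would treat sites of 1 gene as independent. Shares were given exact Clopper-Pearson 95% intervals. Named sites were those highest by mean log2 fold (20 genes), by number of shared enriched sites, among genes with 3' UTR sites only, by difference between mice, by score in 1 mouse only or without enrichment, by distance to the gene end, and the 3 highest of each list. Some sites chosen by this rule are not reported here. Other genes are named from the lists after their values were seen. The members and lists were chosen with earlier results of these data known. Promoter window sequences and gene ends came from RefSeq GRCm38.p6. The motif was searched only in those windows, since no genome was used. The ribosomal list was narrowed and the distance to the gene end was added after seeing the data, since stop codons were not in the reference used. Steps were tested on simulated data. Python 3.11.15, pandas 2.3.3, NumPy 2.4.6, SciPy 1.17.1 and Matplotlib 3.10.9 were used.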

Additional observations from a re-analysis of the deposited data

How the results depend on the processing

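The share of 3' UTR sites enriched in mouse 1 (87.7%) was 55.2% at a log2 fold of at least 4, 98.2% at 2, 93.1% at a score of at least 20, 90.8% with 1 site per gene and 90.2% for sites annotated as 3' UTR in both tables. In mouse 2 (85.7%) it was 54.2%, 97.8%, 92.4%, 88.9% and 90.2%, and 88.3% with the limit applied before the table's constant. Mouse 1 sites called in mouse 2 (85.9%) were 86.6% within 5 bases, 85.2% if also 3' UTR there, 95.1% at a score of at least 20 and 88.3% if enriched. For mouse 2 (80.7%) these were 81.4%, 80.1%, 91.5% and 84.98%. Sites enriched in both fell from 10832 to 6370 at a log2 fold of 4, and taking each mouse's table by itself the enriched sites numbered 13286 to 13810. The 3' UTR minus coding sequence difference was 2.12 and 2.83 points at a log2 fold of 4, 2.17 and 2.53 with 1 site per gene and position, and reversed to -0.64 and -0.044 at a score of at least 20. The cause was not tested. DRACH stood at 84.4% of all sequenced 3' UTR sites of mouse 1, 79.3% of those of mouse 2 and 95.2% of shared enriched ones. Of those not called in the other mouse it stood at 6 of 7 in mouse 1 and 2 of 5 in mouse 2. The median distance to the gene end was 1162 for enriched sites, against 1126, and 1135.5 to 1137 in each mouse's own table. At a log2 fold of 4, genes with a shared enriched 3' UTR site fell from 3851 to 2594 and chromatin regulators from 29 to 17. The ribosomal list's share was 48.5% as matched and 15.6% without S6 kinase genes and Rps19bp1. No paired analysis was possible because the tables give IP over input within each mouse and hold no values per library. Distances to the stop codon were not run. Without read numbers, the precision of a single fold and the depth behind it are unknown, and only sites with a score of at least 10 are listed.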

Other observations

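Replication-dependent histone mRNAs end in a stem-loop and mostly lack a poly(A) tail, and a few histone genes had 3' UTR sites in this poly(A)-selected RNA. In the linker histone gene H1f2 all 8 shared 3' UTR sites were enriched, all 8 lay 20 to 499 bases past the 3' end of the RefSeq gene, and no other position of the gene was called in both mice. Its folds ran from 15.9 to 382 in mouse 1 and from 14.6 to 170.0 in mouse 2. In H2ax, a variant histone gene, all 9 were enriched (strongest 94.3 and 104.96) and lay inside the gene, 93 to 460 bases before its end. The replication-independent linker histone gene H1f0 had 5, all enriched and inside the gene, led by 80.2 and 24.7. H2bc4 had 1 (8.36 and 14.9), and H4c9 had 1, which was 159 bases past the gene and enriched in mouse 1 only (15.0 and 6.26).

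Past the RefSeq gene end lay 66 shared 3' UTR sites of 31 genes, at a median of 248 bases and a range of 3 to 128890, so at least 1 is far from the gene named. Of them 75.8% were enriched in both mice (63.6% to 85.5%), beside 83.9% of all shared 3' UTR sites. After H1f2 the most were in Trim56, an antiviral ubiquitin ligase gene (6), and in the phosphatase gene Dusp5, the G protein gene Gna12 and Maf, with 4 each.

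A minority of the markers of other cell types had a site called in both mice. Of 15 lymphocyte markers, 3 had a shared site, and all 3 had an enriched 3' UTR site: Lck (38.6 and 79.9), Cd28 (17.0 and 19.3) and Cd79b (12.03 and 8.67). Of 10 dendritic cell markers, 3 had one, led by Cd83 with 11 enriched 3' UTR sites (strongest 189.9 and 251), a gene that activated macrophages express as well. Of 15 neutrophil and mast cell markers, 6 had a shared site and 1, Mmp9, an enriched 3' UTR site (14.0 and 9.63). Of 15 stromal, endothelial and erythroid markers, 2 had a shared site and Kdr had 4 enriched 3' UTR sites (44.1 and 52.0).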
